A study of Mus musculus with 8 samples.

Results

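The genes described are those of the mitochondrial ribosomal proteins, taken as every non-control probe whose gene name on the array begins with Mrpl or Mrps followed by a number. The rule found 125 of 41174 probes, which represent 75 genes, and all 75 were among the 16065 genes tested. To be tested, a probe had to clear the scanner's background threshold on each of the 4 arrays for starved cells, for unstarved cells or for both. Of the 125 probes, 118 met this in both groups, 1 met it in starved cells only, and 6 did not pass. Each gene was represented by its brightest probe. Of the 75 genes, 46 carry Mrpl names and 29 carry Mrps names. By present knowledge of the particle 48 belong to its large subunit and 26 to its small subunit, because Mrps30 and Mrps18a sit in the large subunit despite their names. Mrps36 is counted in neither, since its product is now known as a part of the 2-oxoglutarate dehydrogenase complex.

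The cells are IMCD3, an established mouse line that comes from the inner medullary part of the kidney's collecting duct, and the labels name no engineered allele. Starved cells spent 48 h without fetal calf serum (FCS), which induces cilia in this line, and unstarved cells grew with 10% FCS. The unstarved dishes had been split 1:10 on the day before and were not confluent, so serum and cell density cannot be told apart. Each group has 4 samples, and each of 4 arrays of the Agilent 2-colour type held 1 starved and 1 unstarved sample. By the labels, arrays 1 and 3 are replicate 1, with starved RNA in the dye Cy5, and arrays 2 and 4 are replicate 2, with starved RNA in Cy3, so that replicate and dye orientation cannot be told apart. The series text instead describes a dye swap within each pair. By the labels, the 4 samples of a group are 2 replicates, each measured on 2 arrays.

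Mitochondrial ribosomes translate the few proteins encoded by mitochondrial DNA, which are core subunits of the respiratory chain and ATP synthase. Their protein parts are encoded in the nucleus, made in the cytosol and imported, and they assemble on RNAs transcribed inside the organelle. Some members descend from bacterial ribosomal proteins and others are specific to mitochondria. The promoters of such nuclear genes are known as targets of NRF1, of the ETS factor GABP and of YY1, and coactivators of the PGC-1 family act through these factors.

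Upstream sequence is shown for 5 members to let a reader see what these promoters look like: 3 genes that were lower in starved cells, the gap shared by a back-to-back pair of members, and the 1 member that was higher. They were chosen after their values and motif matches had been seen and are examples, not a sample of the family. Each runs 5′ to 3′ on the gene's strand up to the base before the start of transcription, from RefSeq on GRCm38.p6. Capitals mark the NRF1 core GCATGCGC, the ETS core CCGGAAG or the GC box GGGCGG, on either strand. The Mrpl22 stretch is chr11:58171544-58171663 (plus strand), that of Mrpl32 is chr13:14613038-14613157 (minus), that of Mrps22 is chr9:98601680-98601799 (minus), that of Mrps11 is chr7:78783090-78783130 (plus) and that of Mrps6 is chr16:92058216-92058335 (plus).
Mrpl22: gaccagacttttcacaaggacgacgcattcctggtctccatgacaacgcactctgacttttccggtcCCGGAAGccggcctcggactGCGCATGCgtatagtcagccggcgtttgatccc
Mrpl32: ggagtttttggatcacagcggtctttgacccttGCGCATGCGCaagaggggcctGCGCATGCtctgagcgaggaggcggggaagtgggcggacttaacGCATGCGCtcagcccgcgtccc
Mrps22: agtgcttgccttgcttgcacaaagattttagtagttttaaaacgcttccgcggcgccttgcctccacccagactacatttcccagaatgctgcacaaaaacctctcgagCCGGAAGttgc
Mrps11: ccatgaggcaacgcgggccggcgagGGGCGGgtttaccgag
Mrps6: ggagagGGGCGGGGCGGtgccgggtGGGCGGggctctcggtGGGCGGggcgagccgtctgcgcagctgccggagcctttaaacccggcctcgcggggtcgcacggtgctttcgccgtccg

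In the Mrpl22 stretch an ETS core begins 53 bases before the start and an NRF1 core 33 bases before it. The Mrpl32 stretch holds 4 matches to the NRF1 core, of which the pair beginning 87 and 85 bases upstream overlap. The Mrps22 stretch holds an ETS core 11 bases upstream. The Mrps6 stretch holds 4 GC boxes, the farthest 114 and the nearest 79 bases upstream, and neither the NRF1 nor the ETS core was found in its window. Capitals show only the motif named for each gene, and a match is a description of letters, not of binding.

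Over the windows from 250 bases before to 50 after the start, which were available for 66 of the 75 members, the ETS core was present in 36.4% and the NRF1 core in 12.1%. Among the 10517 tested genes with such a window these shares were 19.3% and 5.67%, and among all 32851 windows 8.86% and 2.71%. The YY1 core ATGGCGG was present in 19.7% of members, against 8.99% of tested genes. The GC box was present in 48.5% of members and 67.1% of tested genes, the CCAAT box (CCAAT) in 39.4% and 43.0%, the E-box CACGTG in 7.58% and 11.5%, and the TATA box TATAAA in 7.58% and 9.51%. These 7 motifs, on both strands, are all that were searched, and the shares were not tested against each other. An NRF1 or ETS core was present in 41.7% of the 12 members with a window that were called lower and in 42.6% of the 54 others. The NRF1 core, with or without an ETS core, was present in 25% and 9.26%. Both cores together were present in 16.7% and 3.7%. These are shares of few genes and were not tested.

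The starved against unstarved comparison asks how these transcripts differ once the cells have been driven to form cilia. With loess normalization within each array, most of the family was slightly lower in starved cells: 64 of 75 members had a log2 ratio of starved over unstarved below 0. The median ratio was -0.21, or 1.15-fold lower, while the median of all tested genes was 0.01. Of the 75, 15 were called lower by limma (Benjamini-Hochberg adjusted p below 0.05), which is 20% of the family against 13.4% of all genes tested. Mrps6 was the 1 member called higher, 1.33% of the family against 18.1% of all genes. In either direction 16 members were called, where the share over all genes was 31.4%, and 59 were not called. The ratios ran from -0.66 to 0.50 with quartiles of -0.32 and -0.08, and 0 members reached a 2-fold difference.

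The calls rest on the signal used, on how the arrays are paired and on loess. With the scanner's own processed signals 10 of 75 members were called lower, where 13.8% of all genes were. With the arrays paired as a dye swap within each replicate, as the series text has it, or with a dye term, 61 or 62 members were called lower and 9 higher by limma. Of all genes 42.6% to 43.3% were then called lower, and more were called higher than lower. With arrays 1 and 2 and arrays 3 and 4 paired, for example, 14292 of 16065 genes were called, 6955 of them lower. The mean ratios stay the same and the error changes. If the labels are right, the error in these fits comes only from repeat arrays of a replicate, whose log ratios correlated at 0.99. With the log ratios only centred on each array's median, limma called 0 of the 75 members (0 lower or higher also at an unadjusted p below 0.05, lowest adjusted p = 0.805), against 0.722% of all genes called lower and 0.828% called higher. The median of the members was then -0.46 and that of all genes -0.08, and 74 of 75 members lay below 0, Mrps6 (0.12) being the exception. The family thus lay below the median of all genes under both settings, while the size and the calls differed. The cause of the difference was not tested.

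**Figure D1:**
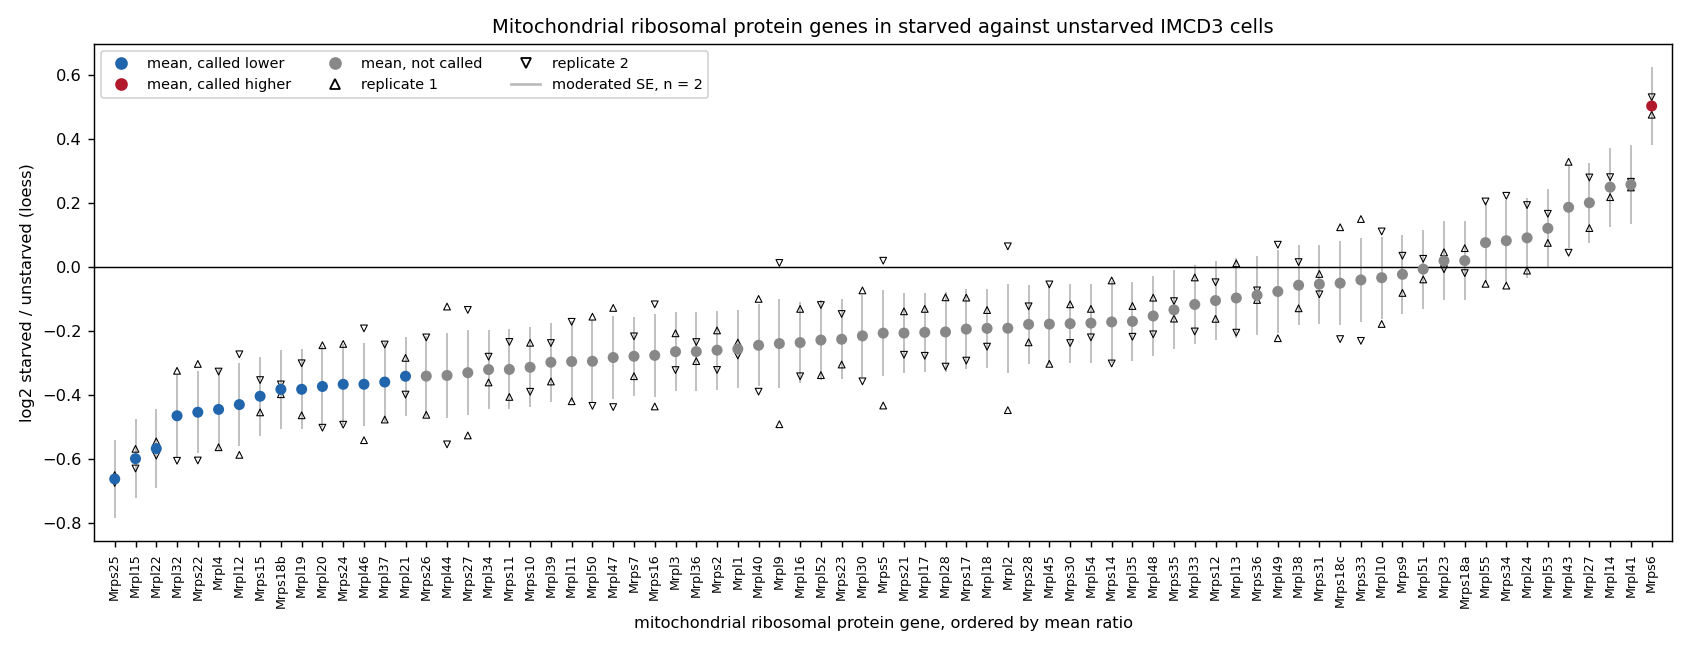
Log2 ratio of starved over unstarved cells after loess (vertical axis) for each of the 75 mitochondrial ribosomal protein genes (horizontal axis, ordered by ratio); filled points are means with the moderated SE of 2 replicates, open triangles the replicates, blue genes called lower and red the gene called higher. Means run from -0.66 (Mrps25) to 0.50 (Mrps6), with 15 blue points, 1 red point and 59 grey ones; with median centring none of these calls held and the 10 other genes right of the crossing of 0 turned below 0.

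Array by array, the loess median of the family was -0.17 on array 1 and -0.16 on array 3 of replicate 1, and -0.22 on array 2 and -0.23 on array 4 of replicate 2. The family was thus shifted by a like amount on each array. With median centring the same medians were 0.24 and 0.05 in replicate 1 and -1.03 and -0.95 in replicate 2. All 75 members were then below 0 in replicate 2, with ratios from -1.51 to -0.51, whereas in replicate 1 they ran from -0.34 to 0.83 with 52 above 0. All genes moved with the replicate as well, with medians of 0.25 in replicate 1 and -0.40 in replicate 2. The members lay below the median of all genes on every array under median centring, by 0.09 and 0.12 on arrays 1 and 3 and by 0.60 and 0.57 on arrays 2 and 4.

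Across the 75 members, as a description over genes that share the arrays and are not independent, the median-centred ratio was higher for brighter probes in replicate 1 (Pearson r = 0.54) and lower for them in replicate 2 (r = -0.51). After loess the mean ratio and the signal had r = 0.42. The loess ratios of replicates 1 and 2 had r = 0.53, the median-centred ones 0.06. The mean ratios with loess and with median centring had r = 0.90 (Spearman rho 0.85).

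**Figure D2:**
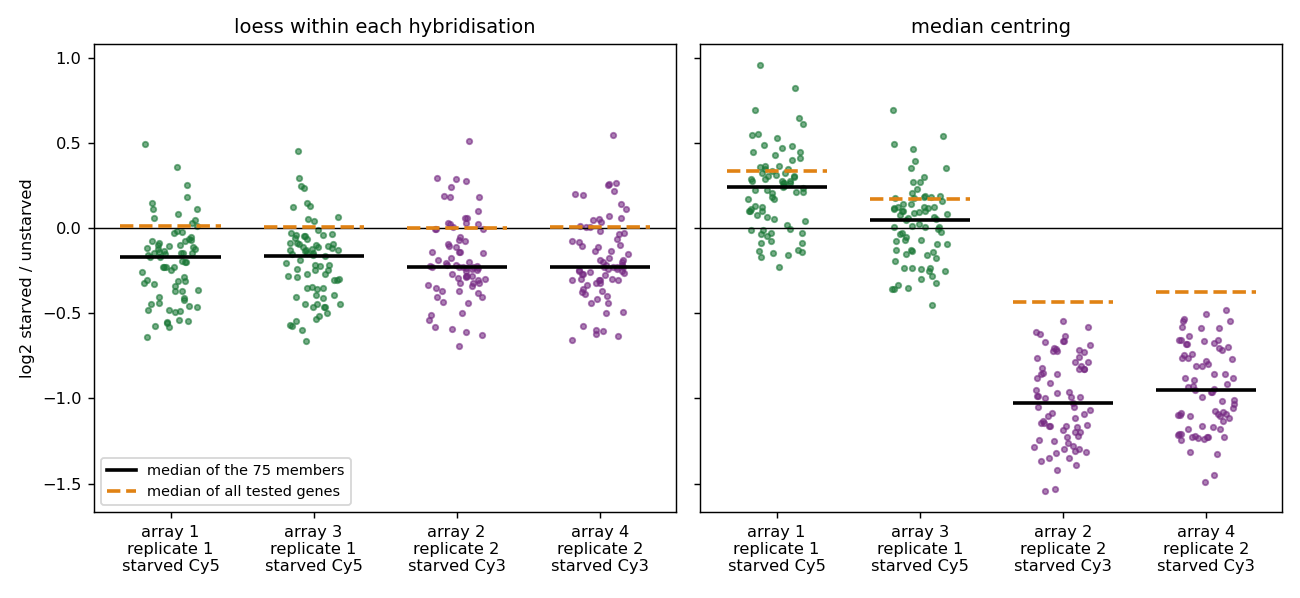
Log2 ratio of starved over unstarved cells (vertical axis) of the 75 members, 1 point per gene, on each of the 4 arrays (horizontal axis, with replicate and the dye of the starved sample), after loess (left) and after median centring (right); black lines are the members' medians and dashed orange lines those of all tested genes. The black line lies below the orange one on each array in both panels, and after median centring the replicates stand apart, at 0.24 and 0.05 in replicate 1 and at -1.03 and -0.95 in replicate 2.

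Of the members, 53 were below 0 on all 4 arrays after loess (36.7% of all genes were below 0 in both replicates), and 6 were above 0 on all 4 (38.2% of all genes were above in both replicates). The other 16 had replicates on different sides of 0. With median centring 23 members were below 0 in both replicates and 0 above, where 23% of all genes were below and 17.2% above in both. Of the 15 called lower, 11 were below in both.

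Mrps25, a small subunit protein specific to mitochondria, had the lowest ratio. Its log2 single-channel level was 13.72, 13.74, 13.66 and 13.79 in the unstarved samples of arrays 1 to 4 and 13.08, 13.04, 12.99 and 13.13 in the starved ones. Mrps25 was lower in both replicates, as were 36.7% of all genes after loess. The loess log2 ratio was -0.66 ± 0.12 (moderated SE, n = 2 replicates; limma adjusted p = 0.000599), or 1.58-fold lower. With median centring its ratio was -0.34 in replicate 1 and -1.27 in replicate 2. This value belongs to the probe at chr6:92139634-92139693 (mm8); a dimmer probe of the same gene had a loess ratio of 0.29, so the probes disagreed in direction, and the call was lost when both were averaged (-0.19, limma adjusted p = 0.227).

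Mrpl15 and Mrpl22 are large subunit proteins of bacterial descent, and Mrpl22 lines the tunnel through which the new chain leaves. Mrpl15 stood at 13.17, 13.17, 13.33 and 13.12 in unstarved and at 12.60, 12.55, 12.76 and 12.48 in starved samples (log2 levels, arrays 1 to 4). Its ratio was -0.60 ± 0.12 (SE, n = 2, limma adjusted p = 0.00137). Mrpl22 stood at 14.18, 14.22, 14.10 and 14.24 in unstarved and at 13.63, 13.64, 13.55 and 13.64 in starved samples, a ratio of -0.57 ± 0.12 (SE, n = 2, limma adjusted p = 0.00207). Both genes were lower in each replicate, and each is measured by 1 probe. Both were below 0 on all 4 arrays with median centring too, with mean ratios of -0.71 for Mrpl15 and -0.74 for Mrpl22.

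Mrpl32, a large subunit protein whose maturation by the m-AAA protease is a step of ribosome assembly, had a ratio of -0.47 ± 0.13 (SE, n = 2, limma adjusted p = 0.0105). Its level was 13.63, 13.74, 13.60 and 13.72 in unstarved and 13.26, 13.15, 13.32 and 13.10 in starved samples. Mrps22, a mitochondria-specific protein of the small subunit, had a ratio of -0.45 ± 0.13 (limma adjusted p = 0.0126), with levels of 13.52, 13.73, 13.52 and 13.76 in unstarved and 13.22, 13.12, 13.22 and 13.15 in starved samples. Both were lower in each replicate after loess. Both differed more in replicate 2 (-0.61 for each) than in replicate 1 (-0.32 for Mrpl32, -0.30 for Mrps22). With median centring their mean ratios were -0.61 and -0.60, but Mrps22 was at 0.01 in replicate 1.

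Mrpl4, of the large subunit, and Mrpl12, the stalk protein that also binds mitochondrial RNA polymerase, differed more in replicate 1 after loess. Mrpl4 was at -0.56 in replicate 1 and -0.33 in replicate 2 (mean -0.45 ± 0.13 SE, limma adjusted p = 0.0128). Mrpl12 was at -0.59 and -0.27 (mean -0.43 ± 0.13 SE, limma adjusted p = 0.0176). With median centring the order was reversed, at -0.26 and -0.77 for Mrpl4 and at -0.24 and -1.30 for Mrpl12. Mrpl12 had log2 levels of 16.31, 16.18, 16.33 and 16.21 in unstarved and 15.73, 15.88, 15.74 and 15.96 in starved samples. Its call was lost when the scanner's own processed signals were used (-0.40, limma adjusted p = 0.0562).

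The other members called lower had smaller differences. Among the lowest 10 these were Mrps15 of the small subunit (-0.40), Mrps18b of the small subunit (-0.38) and Mrpl19 of the large subunit (-0.38). Outside the rule for named genes, and listed after their values were seen, were Mrpl20 (-0.37), Mrps24 (-0.37), Mrpl46 (-0.37), Mrpl37 (-0.36) and Mrpl21 (-0.34). Each of these 8 was lower in both replicates after loess, with limma adjusted p from 0.0195 (Mrps15) to 0.0453 (Mrpl21). Mrps15 lost its call when its 2 probes were averaged (-0.30, limma adjusted p = 0.0638). Mrpl20, Mrpl21, Mrpl37 and Mrpl46 lost theirs with the processed signals, where adjusted p ran from 0.0571 to 0.081.

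Mrps6, of the small subunit, was the member called higher. Its level was 16.17, 16.30, 16.22 and 16.31 in unstarved and 16.67, 16.81, 16.68 and 16.85 in starved samples. Mrps6 was higher in both replicates after loess, as were 38.2% of all genes. The ratio was 0.50 ± 0.12 (SE, n = 2, limma adjusted p = 0.00498), or 1.42-fold higher, and a second probe gave 0.41. With median centring it was 0.83 in replicate 1 and -0.58 in replicate 2, so its direction there depended on the replicate.

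The 9 members next below Mrps6 did not pass the test. Mrpl41 was at 0.26 (limma adjusted p = 0.128), Mrpl14 at 0.25 (adjusted p = 0.141), Mrpl27 at 0.20 (adjusted p = 0.246) and Mrpl43 at 0.19 (adjusted p = 0.298). Mrpl14 sits at the interface between the subunits and Mrpl27 near the site where peptide bonds form. These 4 were above 0 in both replicates after loess but below 0 by their mean with median centring (-0.03, -0.13, -0.08 and -0.20). The remaining ones were Mrpl53 (0.12), Mrpl24 (0.09), Mrps34 (0.08), Mrpl55 (0.08) and Mrps18a (0.02), whose means were also below 0 with median centring.

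The paralogues of Mrps18, which descend from a single bacterial gene, had different values. Mrps18b was called lower (-0.38 ± 0.12 SE, limma adjusted p = 0.0253). Mrps18c, which holds the position of the bacterial protein, was at -0.05 ± 0.13, and Mrps18a, of the large subunit, at 0.02 ± 0.12. Neither passed the test, and the difference between paralogues was not itself tested. Mrpl45 (-0.18), which anchors the ribosome to the inner membrane, Mrps30 (-0.18), and Mrps12 (-0.11), a protein of the decoding centre, lay between the family median and 0 and were not called.

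Probes of the same gene did not always have the same sign. Of 30 members with several passed probes, 4 had a passed probe on the other side of 0 from the one used, and 42 members had a single probe. Besides Mrps25 these were Mrpl49 (used probe -0.08, others 0.28 and 0.32), Mrpl52 (-0.23 against 0.13) and Mrps9 (-0.02 against -0.13 and 0.22). The values of these 4 genes are therefore uncertain in direction. The second Mrpl27 probe, dim and above background in all 4 starved but only 3 unstarved samples, had a ratio of 0.63 and was not used in the main fit. It passed only through the group where it is higher. With both probes averaged Mrpl27 was called higher (0.41, limma adjusted p = 0.0164).

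By subunit, 10 of the 48 large subunit members were called lower (20.8%, beside 13.4% of all genes) and 0 higher, with a median of -0.21. Of the 26 small subunit members 5 were lower (19.2%) and 1 higher, with a median of -0.22. Members that carry a bacterial family name numbered 46, with 10 called lower, 1 higher and a median of -0.23. The 28 with a family name used for mitochondria alone, among them Mrps18a and Mrps18b in spite of their bacterial relative, had 5 lower, 0 higher and a median of -0.18. No difference between these subsets was tested.

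Genes that act with the mitochondrial ribosome are given for comparison, from lists that were set with earlier results of these data known. Their counts are to be read against the 13.4% of all genes called lower and 18.1% called higher; none of these lists was tested as a set. Of 8 ribosomal proteins under other names on the array or in older use, 1 was called lower (Mrpl42, -0.42 ± 0.13 SE, limma adjusted p = 0.019) and 0 higher, with a median of -0.18. Of 28 assembly factors 3 were lower (10.7%) and 1 higher (3.57%), with a median of -0.10. The lower ones were C1qbp (-0.55), a matrix chaperone-like protein, Gtpbp10 (-0.54) and Noa1 (-0.53), which are assembly GTPases, and the higher one was Trmt2b (0.46), an RNA methyltransferase. The limma adjusted p of these 4 ran from 0.00262 to 0.00931.

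Of 16 translation factors 3 were lower (18.8%) and 1 higher (6.25%), with a median of -0.18. Mtfmt, which formylates the initiator, was at -0.51, Taco1, an activator of Cox1 translation, at -0.48, and the elongation factor Gfm1 at -0.47. Among 20 genes for mitochondrial tRNA charging 3 were lower (15%) and 1 higher (5%), with a median of -0.14. Mars2, the methionine enzyme, had the lowest value of that list (-0.65 ± 0.12 SE, limma adjusted p = 0.000819), followed by Gatc (-0.48) and Nars2 (-0.36). Of 11 genes for mitochondrial transcription and DNA maintenance 1 was lower, Tfb2m (-0.38), and 1 higher, Tfam (0.38), which is 9.09% each. With median centring 0 genes of these 5 lists were called.

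Of 11 regulators of mitochondrial gene expression, 2 were called higher (18.2%, against 18.1% of all genes) and 0 lower, with a median of 0.09 after loess and of -0.03 with median centring. Ppargc1a, the coactivator PGC-1α, was at 1.55 ± 0.12 (SE, n = 2, limma adjusted p = 8.2e-08), and it was also called with median centring (1.54, limma adjusted p = 0.0269). Its relatives were Ppargc1b at 0.57 (limma adjusted p = 0.00196) and Pprc1 at -0.32 (limma adjusted p = 0.0664, not called). The transcripts of the factors named above were not called: Nrf1 at 0.09, Gabpa at 0.10 (-0.03 with median centring) and Yy1 at 0.18. Myc stood at 0.01 (-0.30 with median centring).

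Of the 82 cytosolic ribosomal protein genes tested, 6 were called lower (7.32%) and 0 higher, with a median of -0.18. After loess its medians were 0.04 in replicate 1 and -0.36 in replicate 2, beside -0.16 and -0.22 for the mitochondrial family. With median centring the cytosolic median was -0.57 (0.41 and -1.55 by replicate), below the -0.46 of the mitochondrial family (0.15 and -0.99). Of 75 nuclear genes for subunits of the respiratory chain and ATP synthase, 0 were called lower and 4 higher (5.33%), with a median of 0.02 (0.10 in replicate 1 and -0.05 in replicate 2) that turned to -0.27 with median centring. Differences between the families were not tested.

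**Figure D3:**
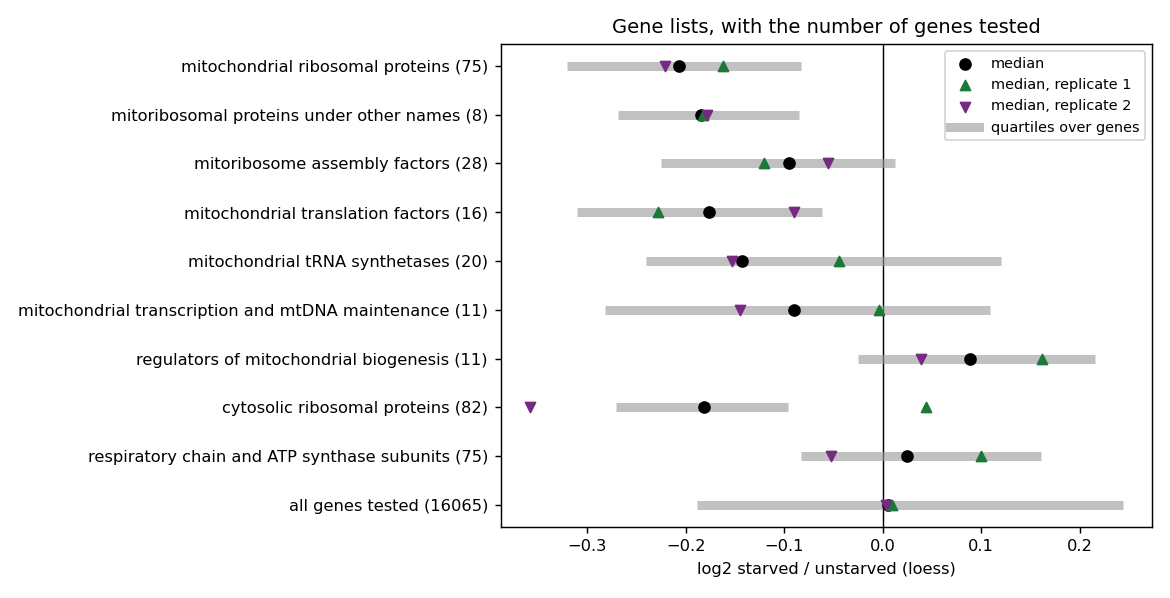
Median log2 ratio of starved over unstarved cells after loess (horizontal axis) for each gene list (vertical axis, with the number of genes tested); black points are the median over genes of the mean ratio, triangles the medians in each replicate, and grey bars the quartiles over genes. The mitochondrial ribosomal proteins lie at -0.21 with both replicates below 0, the cytosolic ones at -0.18 with replicates at 0.04 and -0.36, the regulators at 0.09 and the respiratory chain at 0.02; with median centring these medians were -0.46, -0.57, -0.03 and -0.27, so that the cytosolic family lay below the mitochondrial one.

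Several members start close to another gene, which lets the family be set against its neighbours. Of the 66 members with a start in the promoter table, 23 (34.8%) had a start on the opposite strand within 500 bases, against 20.1% of tested genes. This search was made after the ratios had been seen. In the 21 cases where the neighbour was tested, 2 neighbours were called lower, 1 higher and 18 were not called, and the median of the neighbours was -0.06. These counts are to be read against the 13.4% of all genes called lower and 18.1% called higher, and the neighbours were not tested as a set. Leaving aside Mrpl46 and Mrps11, which are members, 19 neighbours remained, of which 1 was lower, 1 higher and 17 not called. Mrpl46 and Mrps11 are each other's neighbours, with starts 42 bases apart across the short gap printed above, and were at -0.37 and -0.32 (limma adjusted p = 0.0418 and 0.0613).

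Other pairs had ratios of opposite sign. Klc4, a kinesin light chain whose start lies 141 bases from that of Mrpl2, was at 1.02 (limma adjusted p = 1.11e-05) while Mrpl2 was at -0.19 (limma adjusted p = 0.322). Eme1, a DNA repair nuclease subunit 48 bases from Mrpl27, was at -0.38 (limma adjusted p = 0.0321) while Mrpl27 was at 0.20 (-0.08 with median centring). Slc5a3, the sodium and myo-inositol cotransporter, starts on the same strand as Mrps6 and 14 bases from it, and had a ratio of 0.49 ± 0.13 (SE, n = 2, limma adjusted p = 0.00782) beside the 0.50 of Mrps6. With median centring Klc4 (0.92), Eme1 (-0.39) and Slc5a3 (0.45) were not called, and Mrps6 was at 0.12. Whether a neighbour's transcript contributes to a member's signal was not tested.

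**Figure D4:**
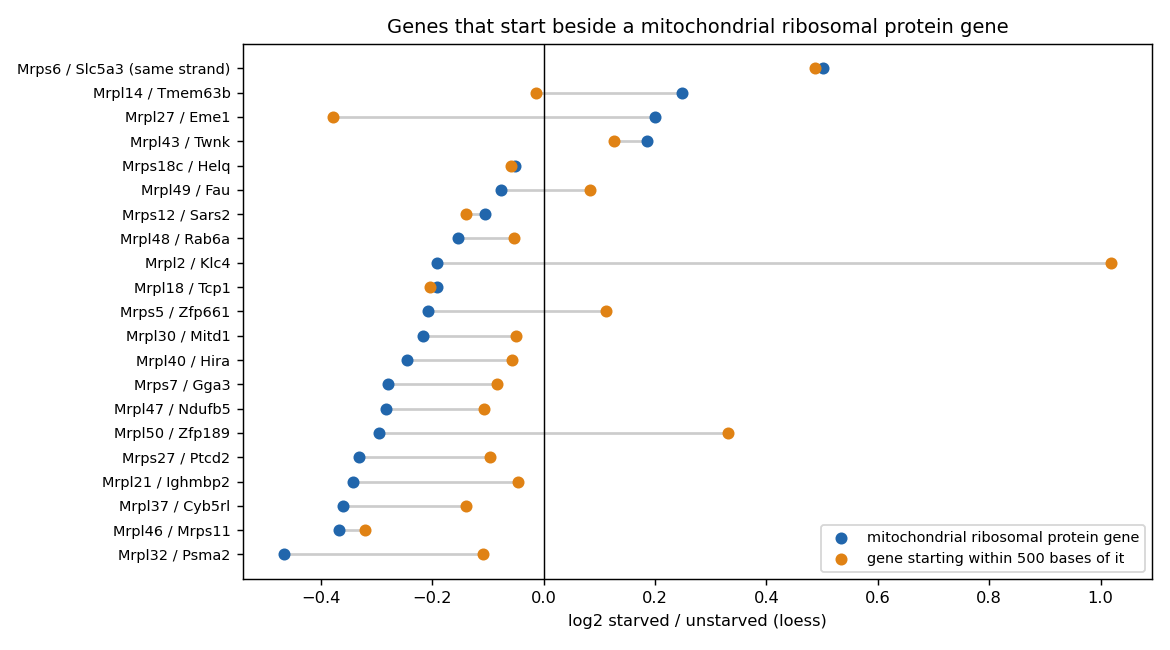
Log2 ratio of starved over unstarved cells after loess (horizontal axis) of members (blue) and of the gene that starts within 500 bases of them (orange), 1 pair per line; all pairs are on opposite strands but Mrps6 and Slc5a3. Mrps6 and Slc5a3 nearly coincide (0.50 and 0.49), whereas Klc4 lies at 1.02 beside Mrpl2 at -0.19. With median centring Mrps6 was at 0.12 and Slc5a3 at 0.45.

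As to the samples as a whole, 14 of 15 collecting duct and epithelial markers were above background in both groups, as were 0 of 5 endothelial, 2 of 8 fibroblast and 2 of 5 leukocyte markers. Of the 15 epithelial markers 4 were called higher (Avpr2 1.11, Cdh1 0.67, Epcam 0.61, Cdh16 0.50), or 26.7% against 18.1% of all genes. Another 2 were called lower (Krt19 -0.90, Krt8 -0.64), or 13.3% against 13.4%. Avpr2 was above background on 4 arrays in starved but on 1 in unstarved cells. It was therefore tested only through the group where it is higher. The log2 of the summed level of the 15 was 19.2 to 19.4 in unstarved and 19.0 to 19.2 in starved samples. Of the 2 fibroblast markers tested Col1a1 was called lower (-1.01), with a summed log2 level of 9.57 to 9.71 in unstarved and 8.87 to 9.02 in starved samples, and the others (Thy1, Pdgfrb, Pdgfra, Lum, Dcn and Col3a1) did not clear the background threshold. Of the 3 leukocyte markers tested Ptprc was called lower (-0.50), with a summed log2 level of 9.27 to 9.60 in unstarved and 9.05 to 9.41 in starved samples, while Itgam and Adgre1 were not well above background. Ptprc was above background on 4 arrays in unstarved but on 2 in starved cells, so it passed only through the group where it is higher. These marker calls are after loess. With median centring 0 epithelial, fibroblast or leukocyte markers were called, and Cdh16 was at 0.11. The part of these markers in the ratios of the family was not tested. Arrays of a replicate correlated at 0.99 in their log ratios, arrays of different replicates at 0.82 to 0.83. In bulk RNA, fewer cells of a type and less RNA per cell cannot be told apart. With 2 replicates, limma takes most of a gene's error from the spread over the whole array. No member spot was flagged and 0 spots were saturated.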

How the data were processed

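Deposited spot intensity values (mean signal, local background and processed signal) were written, per the file headers, by version 9.5.3.1 of Agilent Feature Extraction. How the authors scaled the deposited value table of intensity is not given in the sources used. Both samples of an array have the same file, and the channel of the sample's dye was read. Background correction used normexp (offset 50) on mean signals, then loess within arrays, in limma 3.58.1 (R 4.3.3), without 1639 control spots. Fold values come from log2 starved over unstarved. Arrays were averaged per replicate and 2 replicates fitted with lmFit and eBayes, two-sided, over 16065 genes. Single-channel levels come from loess and Aquantile. Median centring kept normexp. Array positions are mm8.

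Replicates 1 and 2 follow the sample titles; the series text calls them biological. Same-numbered samples carry opposite dyes, so their correlation (-0.297) cannot test the pairing. Named members were the 10 lowest and 10 highest, those with probes of opposite sign, the Mrps18 paralogues and 4 genes of known role; of other lists, the 3 largest called changes. Members and lists were chosen with earlier results of these data known. Only the limma fit was tried on simulated replicate ratios, with 200 changed genes of 16065. It recovered 34% of the changes of 0.5 log2 and 100% of those of 1 log2, and 11 of its 145 calls were false. The main fit called 5052 genes, which makes the adjusted p cutoff less strict than in the simulation. These shares therefore do not carry over to the main fit. Reading, filtering and normalization were not tested in this way. Other offsets, signals, filters, probe rules, pairings, dye and block terms, and omission of arrays were tried.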

Additional observations from a re-analysis of the deposited data

How the results depend on the processing

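The main counts were 15 members called lower, 1 higher and 5052 of all genes. Median centring gave 0, 0 and 249. Pairing arrays 1 with 2 and 3 with 4 gave 61, 9 and 14292, pairing 1 with 4 and 2 with 3 gave 61, 9 and 14097, and a dye term gave 62, 9 and 14195. All 3 place both dye orientations within each unit or model the dye. If the labels are right, their error comes only from repeat arrays of the same replicate. Without the replicate block (single-channel levels) 23 members were lower, 1 higher, and 5859 genes were called; with the replicate block as a random effect the counts were 23, 2 and 5363. Averaging all probes of a gene gave 17 lower and 2 higher, with 4927 of all genes called and 13.7% called lower. The added higher call was Mrpl27, whose dim probe passed only through the starved group. The processed signals and the deposited table each gave 10 of 75 lower and 1 higher. Of all genes 13.8% and 14% were called lower there, so the family's share was not above that of all genes. An offset of 10 and no filter on dim probes each gave 16 lower and 1 higher, and a filter in both groups 15 and 1. Of all genes 14.5%, 8.1% and 13% were called lower in these settings, in the same order. Leaving out 1 array gave 15 to 19 lower, 1 higher and 4962 to 5518 of all genes, and the 16 called members kept their calls in each such fit. By the labels, each such fit keeps the other array of the same replicate, which correlated at 0.99 with the one left out. Keeping a call there was therefore nearly fixed in advance. The median ratio of the members was below 0 in each of these settings; median centring moved it to -0.46, and without replicate 1 or 2 it was -0.22 or -0.16, with no test. All member calls were lost with median centring, 5 with the processed signals or the deposited table and 2 with averaged probes; the cause was not tested. Replicate and dye orientation coincide, and the number of arrays limits the precision.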

Other observations

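Some members differed between the replicates by more than the family's median ratio. Chosen after their values were seen, Mrpl2, a core protein of the large subunit, was at -0.45 in replicate 1 and 0.06 in replicate 2 after loess. Mrpl9 was at -0.49 and 0.01, and Mrps5 at -0.43 and 0.02. Mrps33 (0.15 and -0.23) and Mrps18c (0.12 and -0.23) had the opposite order. With median centring all of them were lower in replicate 2, so the order depended on the normalization. The values were then -0.14 and -0.58 for Mrpl2, -0.18 and -0.51 for Mrpl9, and -0.12 and -0.69 for Mrps5. Mrps33 was at 0.51 and -1.35, and Mrps18c at 0.45 and -1.09. For each of these 5 genes the arrays of a replicate lay on the same side of 0. None was called.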
